A study of Mus musculus with 2 samples.

Results

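The cytokine mRNA decay regulators are a set of 9 genes, namely Zfp36, Zfp36l1, Zfp36l2, Zc3h12a, Rc3h1, Rc3h2, Elavl1, Khsrp and Arid5a, chosen by symbol among the 52636 Ensembl genes in the files. All 9 were found, and all 9 reached a mean of 1 CPM, the read count scaled to the library's total, over both libraries, as did 13453 genes in total. Their RNA was measured in livers of C57BL/6 mice aged 9 weeks. One library came from wild-type mice (WT) and the other from mice labelled GBP5-/- (KO), a deletion in the gene of a guanylate-binding protein. Both genotypes had received GalN, D-galactosamine, at 800 µg and LPS, bacterial lipopolysaccharide, at 100 ng per g body weight, and livers were taken at 6 h. Every library pooled RNA of 4 livers, so each genotype is 1 library. The spread between animals was not measured, and no p-value is given. Intervals are 95% intervals for counting error only, because each genotype is 1 library. They treat reads as independent, which sequencing reads are not fully, so they may be too narrow. No library without GalN and LPS was analysed here.

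Messages for inflammatory cytokines are made in short bursts, and proteins that bind their 3′ untranslated region (UTR) set how long they last. The tristetraprolin family, encoded by Zfp36, Zfp36l1 and Zfp36l2, binds AU-rich elements through zinc fingers and recruits deadenylases. KHSRP also binds such elements and promotes decay, whereas HuR, the product of Elavl1, binds them and is best known for stabilising the message. Regnase-1, the endonuclease encoded by Zc3h12a, and the roquins, encoded by Rc3h1 and Rc3h2, act on stem-loops with a small loop. ARID5A is known for protecting the Il6 message from Regnase-1. Several of these proteins bind their own messages, so the regulators can be targets as well.

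The regulators' own 3′ UTRs hold elements of both kinds, and the sites are shown because they divide the set into groups that the choice of genes did not use. The hairpin search, unlike that for AU-rich elements, was added after the counts were seen. The AU-rich nonamer TTATTTATT, searched on the mRNA strand alone in the annotated UTR (GENCODE M21, GRCm38), occurred in 6 of the 9 genes and in 7.07% of 12205 measured genes with a UTR. Overlapping matches were counted. In the sites below the capitals mark the nonamer, written as DNA in the 5′ to 3′ direction of the message.
Zfp36: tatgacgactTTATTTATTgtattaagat
Zfp36l1: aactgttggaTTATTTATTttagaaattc
Zfp36l2: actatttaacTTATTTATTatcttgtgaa
Rc3h1: actttactcaTTATTTATTgagatgagga
Rc3h2: caaagacattTTATTTATTttactctgta
Elavl1: gtcatgaaaaTTATTTATTtatttattta

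These windows lie at chr7:28376951-28376979 (minus strand), chr12:80108167-80108195 (minus), chr17:84184914-84184942 (minus), chr1:160970043-160970071 (plus), chr2:37373287-37373315 (minus) and chr8:4285788-4285816 (minus), all within 3′ UTR exons. The first 5 genes held 1 match each. Elavl1 held 8 matches, many of them overlapping and the first of them shown, which begin between bases 3794 and 3840 of a UTR of 4218 bases. Only 5 of the 12205 measured UTRs held 8 or more. Longer UTRs hold more matches by length alone, and among UTRs within 25% of a regulator's own length the share with a nonamer was 4.99% for Zfp36, 8.10% for Zfp36l2 and 23.8% for Rc3h1. Zc3h12a, Khsrp and Arid5a had no nonamer, and Arid5a also had no ATTTA, the core pentamer, in a UTR of 868 bases.

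The second element searched was a hairpin of the kind that roquin and Regnase-1 are known to bind, with 5 Watson-Crick pairs around a loop of pyrimidine, purine and pyrimidine. It was matched on letters on the mRNA strand, and folding was not computed. Some listed targets of these proteins, Il6 and Il12b among them, had no match, while others, such as Nfkbiz and Tfrc, had matches. A match or its absence therefore does not show whether a message is bound. Matches occurred in 3 regulators, Zc3h12a, Rc3h1 and Rc3h2, and in 22.1% of measured UTRs. The loop is in capitals below, and the Tnf hairpin, known as the constitutive decay element, is added for comparison.
Zc3h12a: ccctgttgatacaCATtgtatctctgtca
Zc3h12a: gctagttaggcacCATgtgcctgctctct
Zc3h12a: ggcgagatttaaaTATtttaaatgaaaaa
Rc3h1: agccaataacttcTGTgaagttgcctttt
Rc3h2: tttaattaacttcTGTgaagttgtttact
Tnf: cagacatgttttcTGTgaaaacggagctg

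Zc3h12a packed its 3 hairpins into 856 bases (chr4:125119062-125119090, chr4:125118880-125118908 and chr4:125118656-125118684, minus strand). Of 1977 UTRs within 25% of that length, 2 held 3 or more, Zc3h12a included, a share of 0.101%. Rc3h1 and Rc3h2 shared the hairpin stem and loop acttcTGTgaagt within an identical run of 17 bases (chr1:160971653-160971681, plus, and chr2:37373802-37373830, minus). Rc3h1 had 4 matches in 7181 bases and Rc3h2 had 2 in 5160 bases, some of them in TA repeats, and 67.5% and 58.6% of UTRs of like length held at least 1. The Tnf site lies at chr17:35199578-35199606 (minus).

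**Figure D1:**
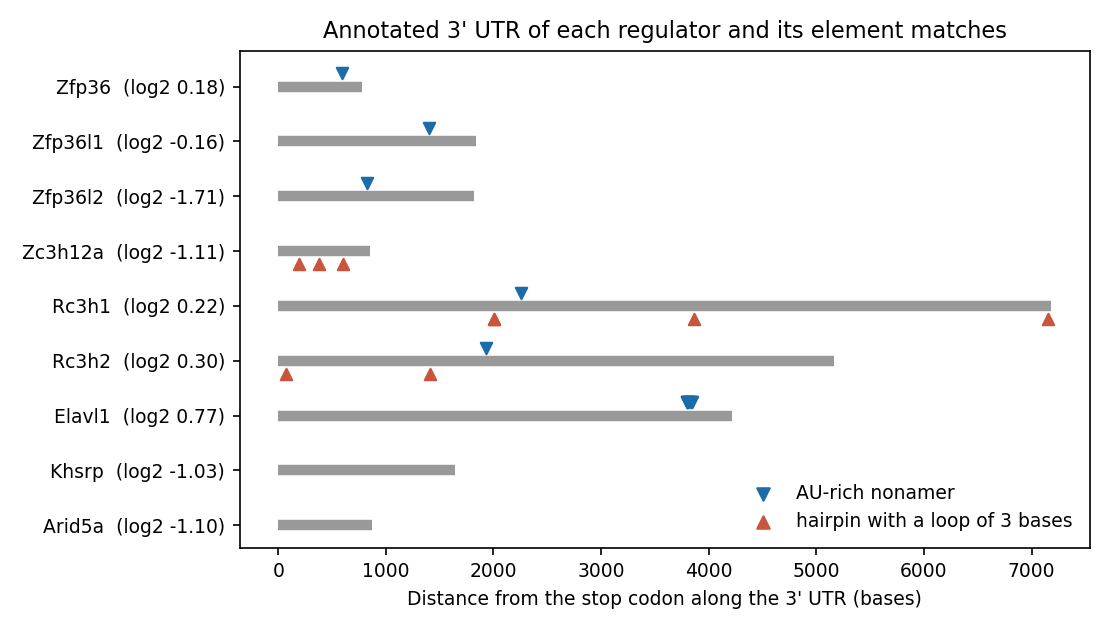
Annotated 3′ UTR of each regulator, drawn to scale as distance from the stop codon in bases, with AU-rich nonamers as downward triangles and hairpins as upward triangles; the log2 ratio of KO to WT stands beside each name. The 8 Elavl1 nonamers sit together near the end of its UTR, and the 3 hairpins of Zc3h12a lie in one of the shortest UTRs of the set.

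Gene counts summed to 19864848 reads in WT and 15750875 in KO, so the smallest count among the regulators, 339 reads, was far above a floor of 3 reads. Gbp5 itself had 161.6 CPM in WT and 55.4 in KO, 2.92-fold lower (2.71 to 3.15). The KO library thus still held 34.3% of the WT level, and since counts per gene do not show which exons the reads came from, the deleted part was not checked. Over all measured genes the median log2 ratio was -0.07, with 11.8% at least 2-fold lower and 3.28% at least 2-fold higher in KO. The ratio went with GC content, as a Spearman rho of -0.47 across genes describes. A correction took from each gene the median log2 ratio of genes with like GC content and length; a true difference that follows either property is removed as well. It moved the share of lower ones among all 2-fold differences from 78.3% to 60.3%. Liver tissue was recognisable by its hepatocyte markers, which summed to 65179 CPM in WT and 103811 in KO, Alb alone making up 38384 and 69250. Of all measured genes 54.5% were below 0 on the log2 scale. Kupffer cell and macrophage markers summed to 1951 and 940 CPM, with 14 of 14 below 0, and T and NK cell markers to 79.7 and 35.5 CPM, with 10 of 10 measured below 0. Neutrophil markers summed to 424 and 336 CPM, with 5 of 8 measured below 0, and endothelial ones to 1049 and 732, with 8 of 9. B and plasma cell ones summed to 65.8 and 48.6 (6 of 7), stellate cell and fibroblast ones to 880 and 809 (6 of 8). Cholangiocyte ones summed to 159 and 250 (1 of 7). Sums follow a few genes, as Csf3r went from 112 to 51.0 CPM and Stab1 from 365 to 171. The endothelial median log2 ratio was -0.08. Among cholangiocyte markers Krt19 went from 11.5 to 48.7 CPM and Sox9 from 53.7 to 38.1. No marker in these lists was at 0 in either library. In pooled bulk tissue fewer cells of a type and less RNA per cell cannot be told apart, and the part of these markers in the differences below was not tested.

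Of the 9 regulators, 4 were at least 2-fold lower in KO, namely Zfp36l2, Zc3h12a, Arid5a and Khsrp, against the 11.8% of all measured genes given above. Of these 4 the interval of Zfp36l2 alone excludes a 2-fold difference, and the counts do not settle on which side of that threshold the other 3 lie. No regulator was 2-fold higher, against 3.28%. At 1.5-fold the same 4 were lower, against 24.3% of all genes, and Elavl1 alone was higher, against 10.9%. Zfp36, Zfp36l1, Rc3h1 and Rc3h2 stayed within 1.5-fold. The median log2 ratio of the set was -0.16, close to that of all genes, since 5 members were below 0 and 4 above. The set was assembled with earlier results of these libraries known, so the counts are a description.

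**Figure D2:**
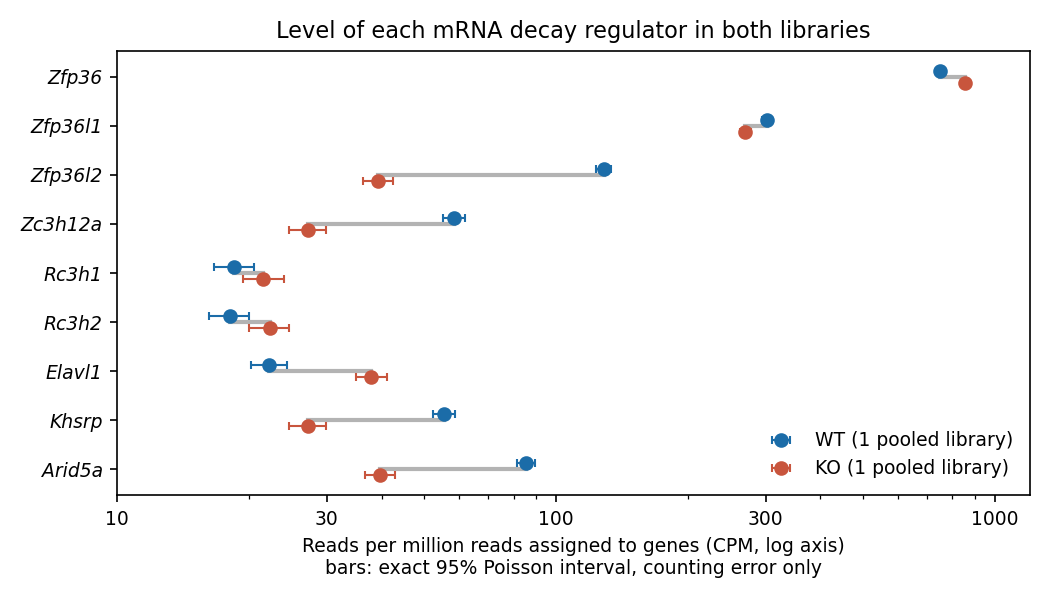
Level of each regulator in WT (blue) and KO (red), in CPM on a log axis, with exact 95% Poisson intervals for counting error; each point is 1 pooled library. Zfp36 is the highest in both libraries, and the widest gap is that of Zfp36l2, from 128 to 39.3 CPM.

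Within the tristetraprolin family the 3 genes went different ways. Zfp36 (ENSMUSG00000044786, chromosome 7, 28376784 to 28380253, minus strand) encodes tristetraprolin, the member that endotoxin induces strongly in macrophages. It had 14909 reads in WT against 13438 in KO, or 751 and 853 CPM. The KO level was 1.14 times the WT level (1.11 to 1.16), a log2 ratio of 0.18. Zfp36l1 (ENSMUSG00000021127, chromosome 12, 80107754 to 80113013, minus) had 6009 and 4253 reads, or 302 and 270 CPM. Its ratio was 0.893 (0.858 to 0.929), a log2 ratio of -0.16. Both genes thus differed little between the libraries, in opposite directions.

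Zfp36l2 (ENSMUSG00000045817, chromosome 17, 84183931 to 84187947, minus) showed the largest difference of the 9. It had 2550 reads in WT against 619 in KO, or 128 and 39.3 CPM, and was 3.27-fold lower in KO (2.99 to 3.57), a log2 ratio of -1.71. Of the measured genes 2.70% had a lower ratio, and 179 lay within 0.1 log2 units of it. Zfp36 and Zfp36l2 have nearly the same GC content, 54.1% and 54.8%, and similar exon lengths, 3470 and 3530 bases, so they fell into the same GC and length class of 281 genes, whose median log2 ratio was -0.18. After the correction Zfp36l2 was at -1.53 and Zfp36 at 0.36. The gap between them cannot change under this correction, since the same class median is taken from both. In reads, Zfp36 exceeded Zfp36l2 by 5.85 times in WT and 21.7 times in KO, a shift of 3.71 times (3.39 to 4.07, Woolf interval) that needs no scaling to library totals.

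The summed level of the family was nearly the same in both libraries, while its make-up was not. Their sum was 1181 CPM in WT against 1162 in KO, and the ratio was 0.984 (0.965 to 1.003). Zfp36 supplied 63.5% of the family's reads in WT (exact binomial interval 62.9% to 64.1%) and 73.4% in KO (72.7% to 74.0%). Zfp36l1 supplied 25.6% (25.05% to 26.2%) and 23.2% (22.6% to 23.8%), and Zfp36l2 10.9% (10.5% to 11.3%) and 3.38% (3.12% to 3.65%). A processed pseudogene, Zfp36l1-ps, had 36 and 31 reads. An antisense gene, Gm26669, covers 1672 of the 2990 exon bases of Zfp36l1 and had 6 and 1 reads. The strand setting of the counting is not given in the sources used here, so reads of the pair cannot be told apart. Whether reads in the shared bases were left out is not known either, and the level and share of Zfp36l1 may be affected.

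The other 2 genes for proteins that bind AU-rich elements differed in opposite directions. Khsrp (ENSMUSG00000007670, chromosome 17, 57021051 to 57031522, minus), whose product promotes decay, had 1104 reads in WT against 428 in KO, or 55.6 and 27.2 CPM. It was 2.05-fold lower in KO (1.83 to 2.29), with a log2 ratio of -1.03. Elavl1 (ENSMUSG00000040028, chromosome 8, 4285382 to 4325413, minus), which encodes the stabiliser HuR, had 441 and 597 reads, or 22.2 and 37.9 CPM. The KO level was 1.71 times the WT level (1.51 to 1.94), a log2 ratio of 0.77, and 93.8% of measured genes had a lower ratio. Elavl1 shares 204 exon bases with Ccl25 on the opposite strand, which had 115 and 92 reads.

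Elavl1 had the highest ratio of the regulators, so its reads per read of any other regulator were higher in KO, most so against the lowest. Per read of Khsrp there were 0.399 reads of Elavl1 in WT and 1.39 in KO, a shift of 3.49 times (2.96 to 4.12). Against Zfp36l2 the figures were 0.173 and 0.964, a shift of 5.58 times (4.79 to 6.49), and against Zc3h12a 0.379 and 1.39, a shift of 3.68 times (3.12 to 4.35). Against the abundant Zfp36 the ratio was 0.0296 in WT and 0.0444 in KO, a shift of 1.502 times (1.33 to 1.70). After the correction for GC content and length these 4 shifts were 1.07, 2.23, 1.42 and 0.33 on the log2 scale, in place of 1.80, 2.48, 1.88 and 0.59. Against the other genes that promote decay the shifts were 1.91 times for Zfp36l1 (1.68 to 2.18), 1.47 for Rc3h1 (1.21 to 1.78) and 1.38 for Rc3h2 (1.14 to 1.68). After the correction they were 0.86, 0.68 and 0.66 on the log2 scale.

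Among the regulators of stem-loops, Zc3h12a (ENSMUSG00000042677, chromosome 4, 125118423 to 125127840, minus) had 1165 reads in WT against 428 in KO, or 58.6 and 27.2 CPM. It was 2.16-fold lower in KO (1.93 to 2.42), a log2 ratio of -1.11. Rc3h1 (ENSMUSG00000040423, chromosome 1, 160906418 to 160974978, plus), encoding roquin-1, had 367 and 339 reads, or 18.5 and 21.5 CPM, a ratio of 1.16 (1.002 to 1.35). Rc3h2 (ENSMUSG00000075376, chromosome 2, 37370069 to 37422903, minus), encoding its paralogue, had 358 and 350 reads, or 18.02 and 22.2 CPM, a ratio of 1.23 (1.06 to 1.43). Both roquin genes were thus slightly higher in KO and near equal to one another. Their sum had a ratio of 1.199 (1.08 to 1.33), and the log2 ratio was 0.02 for Rc3h1 and 0.04 for Rc3h2 after the correction. Reads of Zc3h12a exceeded those of Rc3h1 by 3.17 times in WT and 1.26 times in KO.

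Arid5a (ENSMUSG00000037447, chromosome 1, 36307733 to 36324029, plus) opposes Regnase-1 at the Il6 message, and it was lower together with Zc3h12a. It had 1693 reads in WT against 625 in KO, or 85.2 and 39.7 CPM. The difference was 2.15-fold (1.958 to 2.36), a log2 ratio of -1.10, and Zc3h12a and Arid5a thus differed by nearly the same factor. A ratio of this size was not rare, since 467 measured genes lay within 0.1 log2 units of Zc3h12a and 479 within 0.1 of Arid5a.

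Compared per length, as FPKM (CPM per kilobase of exon), the regulators spanned a wide range and kept almost the same order. Zfp36 led with 216 FPKM in WT and 246 in KO, followed by Zfp36l1 with 101 and 90.3, Zfp36l2 with 36.4 and 11.1, and Zc3h12a with 20.3 and 9.43. Khsrp had 12.9 and 6.29 FPKM. Arid5a had 6.80 and 3.16, Elavl1 2.14 and 3.66, Rc3h1 1.63 and 1.90, and Rc3h2 0.918 and 1.13. The sole change of order was that Elavl1 passed Arid5a in KO, where their Poisson intervals, 3.37 to 3.96 and 2.92 to 3.42, overlap. Those of Zfp36l2 and Zc3h12a in KO, 10.3 to 12.05 and 8.56 to 10.4, overlap as well, and other neighbours in the order did not. Lengths are the union of all annotated exons, which is long for Rc3h2, at 19624 bases, and for Arid5a, at 12540, and so lowers their FPKM.

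**Figure D3:**
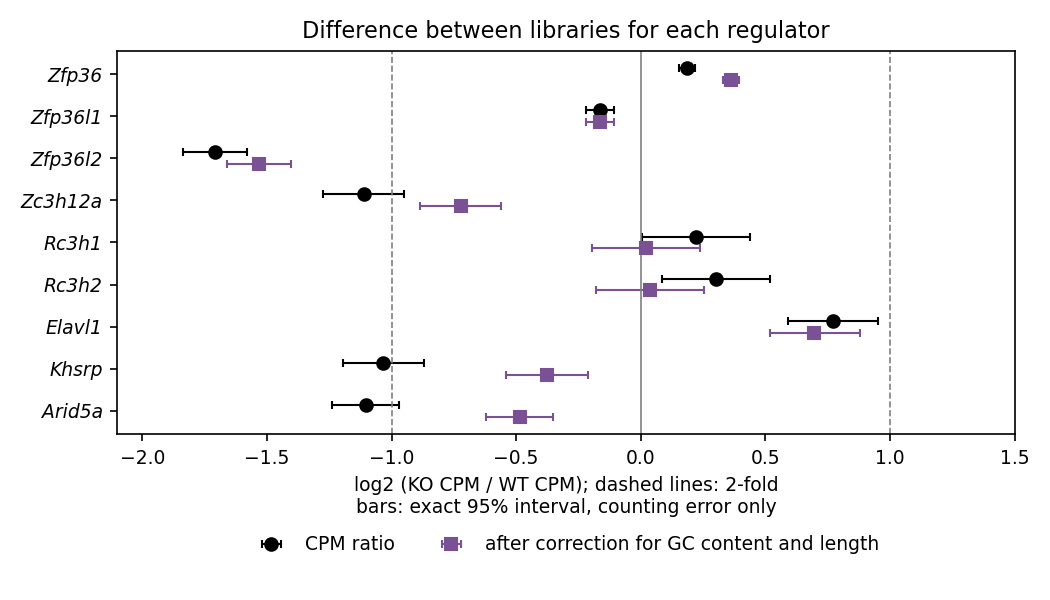
Log2 ratio of KO to WT for each regulator as measured in CPM (black circles) and after the correction for GC content and length (purple squares), with exact 95% intervals for counting error and dashed lines at 2-fold. Of the 4 genes left of -1 before the correction, Zfp36l2 alone stays there, at -1.53.

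For most regulators the ratio went with GC content in the direction of the trend over all genes. Zfp36 was an exception, with 54.1% GC and a log2 ratio of 0.18 in a class by GC content alone whose median was -0.32. The 4 that were 2-fold lower had GC contents of 54.8% to 57.3%. Of all genes in the GC class that holds Zfp36, Zfp36l2 and Arid5a 15.8% were 2-fold lower, and of those in the GC class of Zc3h12a and Khsrp 24.6%. Rc3h1 and Rc3h2 had 41.7% and 38.8%, in GC classes whose medians were 0.22 and 0.28. After the correction, 1 regulator, Zfp36l2, was 2-fold lower, against 6.0% of all genes, and none was 2-fold higher, against 3.96%. At 1.5-fold Zfp36l2 and Zc3h12a were lower, against 16.0%, and Elavl1 was higher, against 11.8%. Zc3h12a went to -0.72, Arid5a to -0.49, Khsrp to -0.37 and Elavl1 to 0.70. With totals that leave out the 50 most abundant genes, Arid5a, at -0.9995, and Khsrp, at -0.93, were short of 2-fold as well. Zfp36l2, at -1.60, and Zc3h12a, at -1.007, were not. Arid5a and Zc3h12a thus lay close to the threshold on either side. Khsrp and Zc3h12a had similar GC contents, 57.3% and 57.1%, but different exon lengths. The medians of their GC and length classes, which the correction subtracts, were -0.66 and -0.39. Arid5a and Zfp36l2 share a GC class, but their exon unions were 12540 and 3530 bases and the medians subtracted were -0.62 and -0.18. The corrected value of Arid5a thus depends on its long union of annotated exons.

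**Figure D4:**
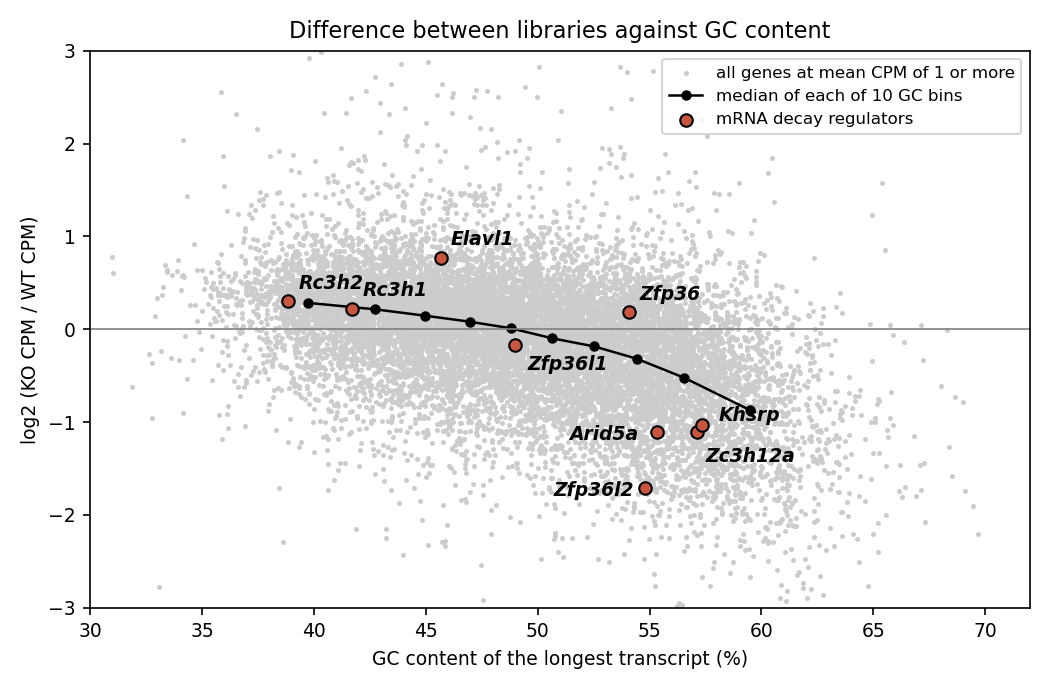
Log2 ratio of KO to WT against GC content of the longest transcript in percent, for measured genes (grey), the median of each of 10 GC classes (black) and the 9 regulators (red). Rc3h1, Rc3h2 and Zfp36l1 lie near the black line, Zfp36l2 lies far below it, and Elavl1 and Zfp36 lie above it; 72 genes fall outside the axes.

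The machinery that the regulators recruit is given beside the all-gene shares of 11.8% 2-fold lower and 3.28% higher. Its 3 lists had median GC contents of 47.1% to 47.8%, below the 54.1% of the regulators, and GC content goes with the ratio. Of 19 deadenylation genes (CCR4-NOT, PAN and their adaptors) none was 2-fold lower or higher, and the median log2 ratio was 0.04. Cnot1, the scaffold of the CCR4-NOT complex that tristetraprolin contacts, was highest with 954 reads in WT against 1304 in KO, a ratio of 1.72 (1.58 to 1.88), followed by Cnot4 at 0.51. Cnot3 and Cnot11, also subunits, were lowest at -0.93 and -0.81. Of 17 decapping and 5′ to 3′ decay genes none was past 2-fold, with a median of 0.10, from the decapping cofactor genes Dcp1b at -0.98 and Lsm4 at -0.51 to the exonuclease gene Xrn2 at 0.50 and Patl1, a decapping scaffold, at 0.61. Of 15 measured exosome and cofactor genes 1 was 2-fold lower, the helicase gene Skiv2l, at -1.03 before and 0.21 after the correction. The median of that list was 0.17, with Exosc3 at -0.58, Ttc37 at 0.53 and Exosc9 at 0.75, and its other gene, Exosc6, was listed at 0 reads in both libraries.

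The UPF and SMG factors act in nonsense-mediated decay, and UPF1 is the helicase with which Regnase-1 is known to act. Of 10 such genes 9 were below 0 and 3 were 2-fold lower, with a median of -0.60, where 54.5% of all genes were below 0 and 11.8% were 2-fold lower. After the correction the median was -0.33 and 1 gene, Upf3a, was 2-fold lower, against 6.0%. Upf1 had 1591 reads in WT against 500 in KO and was 2.52-fold lower (2.28 to 2.80). Its log2 ratio of -1.34 became -0.32 after the correction. Upf3a was 2.56-fold lower (1.95 to 3.39) on 229 and 71 reads and kept a log2 ratio of -1.35 after it. Upf2 and Smg8 were highest, at -0.03 and 0.32.

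Among 17 genes of upstream control the lowest was Mapkapk2, the kinase that phosphorylates and inactivates tristetraprolin. It had 3665 reads in WT against 868 in KO and was 3.35-fold lower (3.11 to 3.61), a log2 ratio of -1.74 that was -1.36 after the correction. It differed by about as much as Zfp36l2, whose log2 ratio was -1.71. Malt1, the protease that cleaves Regnase-1 and the roquins, was 1.90-fold lower (1.64 to 2.21) on 614 and 256 reads. Btrc, whose product marks Regnase-1 for degradation, was 1.80 times as high in KO (1.44 to 2.26), and Map2k6, a stress kinase gene, was 2.08 times as high (1.38 to 3.16) on 40 and 66 reads. The list had a median of -0.14, with 1 gene 2-fold lower and 1 higher, against 11.8% and 3.28% of all genes. After the correction Mapkapk2 and Malt1, at -1.36 and -1.19, were 2-fold lower and none was higher, against 6.0% and 3.96%.

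Other proteins that bind such elements had 12 of 18 genes measured and a median of -0.30, with 1 gene 2-fold lower, against 11.8% of all genes. That gene was Zc3h12d, a relative of Zc3h12a, on 70 and 24 reads, at -1.21 before and -0.88 after the correction. Hnrnpll was at -0.88 before and -1.14 after it, when it alone of the list was 2-fold lower, against 6.0% of all genes. Tial1 was at 0.38 and Cpeb4 at 0.66. Elavl2, Elavl3 and Elavl4, the relatives of Elavl1 known from neurons, had at most 3 reads in either library, as did Zfp36l3, and Zc3h12b had 11 and 12. Celf1 was listed at 0 in both.

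**Figure D5:**
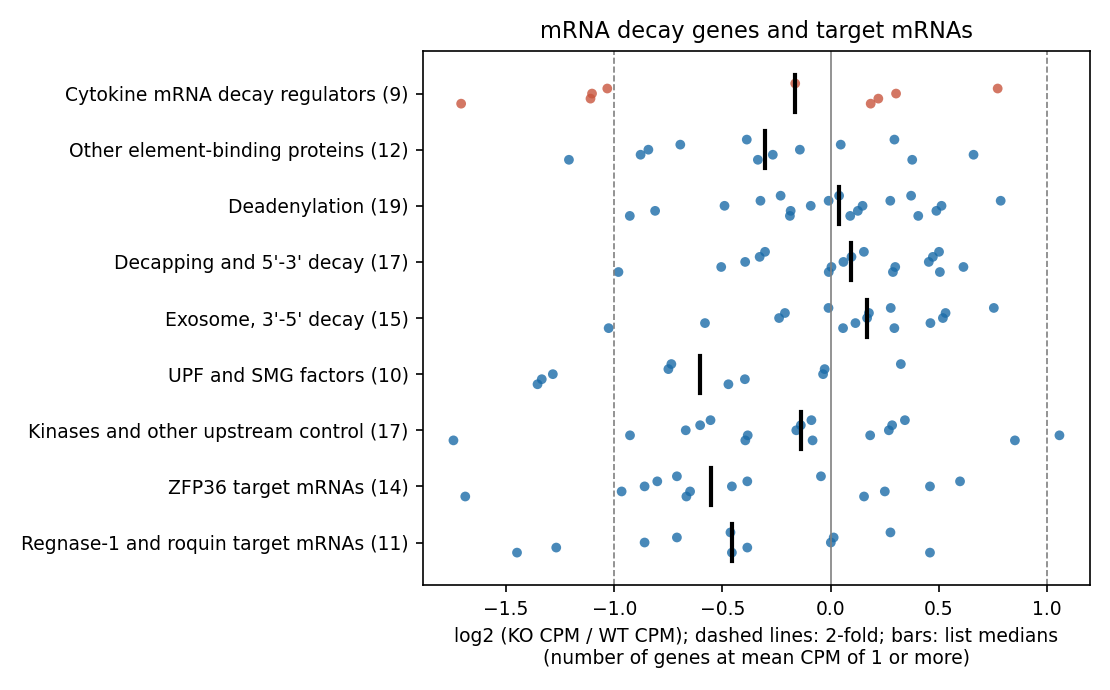
Log2 ratio of KO to WT for the regulators (red) and for other genes of mRNA decay and target messages (blue), 1 point per gene at a mean of 1 CPM or more; black bars are list medians and dashed lines mark 2-fold. The regulators spread from -1.71 to 0.77 and the genes of upstream control from -1.74 to 1.06. No gene of deadenylation or decapping passes 2-fold.

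Known targets of the tristetraprolin family were measured beside their regulators. Of 15 such genes 14 were measured, with a list median of -0.55. Of these, 10 were below 0 and 1, Pim1, was 2-fold lower, against 54.5% and 11.8% of all genes. At 1.5-fold 7 of the 14 were lower and 1 higher, against 24.3% and 10.9% of all genes. After the correction 3 were 2-fold lower, against 6.0%, namely Pim1 at -1.03, Il10 at -1.18 and Ptgs2, the cyclooxygenase gene, at -1.14. Pim1, a kinase gene with 3 nonamers in its UTR, had 10497 reads in WT against 2582 in KO and was 3.22-fold lower (3.09 to 3.37). Il10, an anti-inflammatory cytokine gene, was at -0.97. At the other end were Cxcl1, a neutrophil attractant gene with 2 nonamers, at 0.46, and Il23a, with 1, at 0.60 on 45 and 54 reads. Tnf, with 5 nonamers and 2 hairpins, was at -0.39. Targets with nonamers therefore lay on both sides of 0.

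Of 14 listed targets of Regnase-1 and the roquins 11 were measured, with a median of -0.46. Of these, 2 were 2-fold lower, against 11.8% of all genes, namely Il6, on 322 and 106 reads, at -1.27, and Il12b, on 31 and 9 reads, at -1.45. After the correction Ptgs2 joined them, which made 3, against 6.0% of all genes. The highest were Cxcl1 and Lcn2, at 0.46 and 0.28. The list shares 5 genes with that of tristetraprolin targets. Of the messages that ARID5A is known to protect, Il6 was measured with Tbx21, a T cell transcription factor gene, on 40 and 8 reads, at -1.99, and with Stat3, at -0.21. Arid5a and Il6 were thus lower in KO side by side, as was Zc3h12a.

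Over all measured genes the medians by number of nonamers lay close together. The median log2 ratio was -0.07 for 11342 genes with no nonamer, -0.04 for 685 with 1 and -0.08 for 178 with 2 or more. After the correction the medians were 0.01, -0.06 and -0.07. The regulators with 1 nonamer, Zfp36, Zfp36l1, Zfp36l2, Rc3h1 and Rc3h2, spanned log2 ratios from -1.71 to 0.30. The 3 without it, Zc3h12a, Khsrp and Arid5a, lay between -1.11 and -1.03, and Elavl1, with 8, was at 0.77. These 3 are also the regulators of highest GC content, from 55.3% to 57.3%, and whether the element or the GC content goes with their ratios cannot be told apart with 9 genes.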

How the data were processed

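The values deposited by the authors are whole-number read counts per gene, with no normalization, although the files call them FPKM. The submitters' processing notes name GRCm38, HTSeq 0.6.1 and TopHat2. Which annotation release and strand setting were used is not given in the sources used here. Rows without an Ensembl ID (209, with 0.652% of counts in WT and 0.496% in KO) were left out. CPM used the sum over all Ensembl rows. Genes were measured at a mean of 1 CPM or more over both libraries, and differences are log2 ratios of KO to WT CPM without a pseudocount, with a count of 0 set to 3 reads and no ratio where both counts are 3 or fewer. With 1 library per group the rule of 2-fold, beside 1.5-fold, is one of size. Intervals of ratios are exact (Clopper-Pearson), given the summed reads of both libraries. FPKM, GC content, exon overlaps and 3′ UTRs came from GENCODE M21 (UTR of the transcript with the longest coding sequence).

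The correction used 10 GC classes by 4 length classes of genes with 100 reads or more. All 9 members are described; in each other decay or target list the 2 highest and 2 lowest genes are named, and any other gene was named with its values in view. The members and lists were chosen with earlier results of these data known, and the hairpin search was added after the counts were seen. Simulated counts with known fold changes were used to test the steps. Python 3.11.15, numpy 2.4.6, pandas 2.3.3, scipy 1.17.1 and matplotlib 3.10.9 were used. TMM factors, an alternative scaling, came from edgeR 4.0.16 (R 4.3.3).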

Additional observations from a re-analysis of the deposited data

How the results depend on the processing

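With the correction for GC content and length, 1 regulator was 2-fold lower in KO in place of 4, and 807 genes in place of 1589. With totals that leave out the 50 most abundant genes, 2 regulators were 2-fold lower and the median of the set was -0.061, with an upward shift of 0.103 in the all-gene median. With log2 of FPKM plus 1, 2 regulators, 696 genes lower and 105 genes higher were found, a scale that shrinks differences of genes with low FPKM. Without the filter on level 2609 genes were lower and 1902 higher, with no ratio for genes at 3 reads or fewer in both libraries, and at a mean of 5 CPM or more 131 were higher. The lower share of 2-fold differences, 78.3% as reported, was 57.8% without a filter and 89.4% at 5 CPM. Median ratio and TMM scaling, totals without mitochondrial genes, 0.5 CPM added, protein-coding genes alone, no filter and the filter of 5 CPM kept the count of 2-fold lower regulators at 4, and no alternative changed the sign of a regulator. No paired analysis was possible because each group is 1 library. Depth limits little here, since every regulator had 339 reads or more, whereas the spread between mice and between library preparations was not measured.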
